A study of Homo sapiens with 3 samples.

Results

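The genes described here encode the core machinery that builds an autophagosome and joins it to the lysosome. They were chosen by name, with earlier results of these data known. All 36 genes were measured among the 12321 genes that passed the signal filter. Of the 97 probe sets that named exactly 1 of them, 74 were kept and 23 were too dim. By step, 5 genes belong to the ULK complex, 7 to the PI3K complexes, 9 to lipid transfer, 10 to the conjugation of ATG8 proteins and 5 to fusion.

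HCT-116 is a human colorectal cancer line, and 3 arrays of it were compared, 1 each of SCD1-WT cells given T-3764518, SCD1-KO cells, and SCD1-WT cells given DMSO, the solvent. SCD1 (stearoyl-CoA desaturase-1) puts the double bond into saturated fatty acids, and T-3764518 is a small-molecule inhibitor of it. By the study's methods the inhibitor was used at 100 nM for 24 h and the solvent for the same 24 h. The labels give the SCD1-KO array neither a vehicle nor a time, and the study's text states that those cells received DMSO. The methods describe SCD1-KO cells as clones picked after Cas9 cutting with a pair of guides, and the sources do not say whether the array holds 1 clone. All groups share the same parental line and medium.

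Autophagy encloses cytoplasm in a double membrane and delivers it to the lysosome. The ULK kinase complex starts the process, and the PI3K complex around the lipid kinase VPS34 then marks the site with the lipid PI3P. PROPPIN proteins read that lipid, ATG2 proteins carry lipids into the growing membrane, and the scramblases ATG9A, TMEM41B and VMP1 spread them over both leaflets. A pair of ubiquitin-like reactions then attaches ATG8 proteins such as LC3 to the membrane, and SNARE proteins with their tethers fuse the closed vesicle with the lysosome. Much of this machinery is known to be regulated by phosphorylation, which arrays of mRNA do not measure.

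Values are deposited MAS5 signals, a scaled brightness per probe set on a linear scale. A gene's value is the median, over its kept probe sets, of the log2 ratio to the array of SCD1-WT cells with DMSO, and its signal is the geometric mean of those probe sets. With 1 array per condition no difference has a replicate check, no test was run, and genes are called higher or lower at 2-fold. The error given is the SD between probe sets that read the same gene at a similar brightness, 0.45 (log2) in the second quintile of signal and 0.23 in the brightest with the inhibitor, and 0.46 and 0.23 in SCD1-KO cells. It leaves out differences between cultures. In such bulk RNA, fewer cells that express a gene and less RNA per cell cannot be told apart. Both ratios share the DMSO array, so an error on that array enters both.

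The arrays had the same trimmed mean of 500.1, but medians of 56.7 with the inhibitor, 62.4 in SCD1-KO cells and 68.8 with DMSO, so scaling them to 1 median instead would add 0.28 to every log2 ratio with the inhibitor and 0.14 to every one in SCD1-KO cells. As deposited, 269 genes were called higher and 407 lower with the inhibitor, and 385 and 484 in SCD1-KO cells. Scaled to 1 median the split was 551 and 163, and 571 and 365. Quantile normalization gave 353 and 265, and 423 and 485, and the lowess correction 365 and 244, and 415 and 462. SCD, the gene of SCD1, had log2 ratios of 0.72 to 3.10 over 4 probe sets with the inhibitor and of 0.017 to 1.36 in SCD1-KO cells. The deleted part is not placed on these probe sets, so SCD does not check the knockout. Of 7 epithelial markers 6 passed the filter, among them KRT8, KRT18 and KRT19 at log2 ratios of 0.26 to 0.36 in SCD1-KO cells, but EPCAM (signals of 17224 on the T-3764518 array, 6840 on the SCD1-KO array and 16859 on the DMSO array) was 2.46-fold lower and CDH1 2.78-fold lower in SCD1-KO cells. The summed signal of the 7 was 73782, 64688 and 67940 on the same arrays. Of 10 markers of leukocytes, fibroblasts and endothelium, 4 passed the filter, PTPRC, COL3A1, VWF and CDH5 were under it and 2 were not read by a probe set of their own; their summed signal was 626, 447 and 600. ACTB, whose 3′ to 5′ signal ratio grows with RNA degradation, gave 1.36, 1.54 and 1.30. The part of the markers and of RNA quality in the results was not tested.

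Of the 36 genes, 2 passed 2-fold with the inhibitor, and whether that count differs from the share of all genes was not tested. WIPI1 and TMEM41B, both of the lipid transfer step, were higher after T-3764518 in SCD1-WT cells, and none was lower, while 2.18% of all tested genes were called higher and 3.30% lower. In SCD1-KO cells 0 of the 36 genes were called in either direction, against 3.12% and 3.93% of all genes. At 1.5-fold, 7 members were higher and 1 was lower with the inhibitor (6.62% and 12.3% of all genes), and 5 were higher and 0 lower in SCD1-KO cells (9.95% and 11.4%). The 7 were ATG101, WIPI1, WDR45, TMEM41B, ATG4A, ATG12 and PLEKHM1, the 1 was PIK3C3, and the 5 were WDR45, TMEM41B, ATG3, ATG4A and ATG12.

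The median log2 ratio of the 36 genes was 0.11 with the inhibitor, against -0.087 over all genes, and 0.20 in SCD1-KO cells, against -0.011. Ratios above 0 were found for 20 members with the inhibitor, where 41.0% of all genes were above 0, and for 24 in SCD1-KO cells, where 48.9% were. A count that no scaling of whole arrays can move is that of members above the median of all genes, which was 23 of 36 with the inhibitor and 24 of 36 in SCD1-KO cells. By definition, all genes divide evenly about that median. After quantile normalization and after the lowess correction these counts were again 23 and 24. The members with the inhibitor lay between -0.79 and 1.49, and those in SCD1-KO cells between -0.40 and 0.95. Farther from 0 than the SD between probe sets were 13 members with the inhibitor (10 above and 3 below) and 15 in SCD1-KO cells (13 above and 2 below). The share of all genes past that SD was not computed, so the 13 and 15 do not set the members apart.

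**Figure D1:**
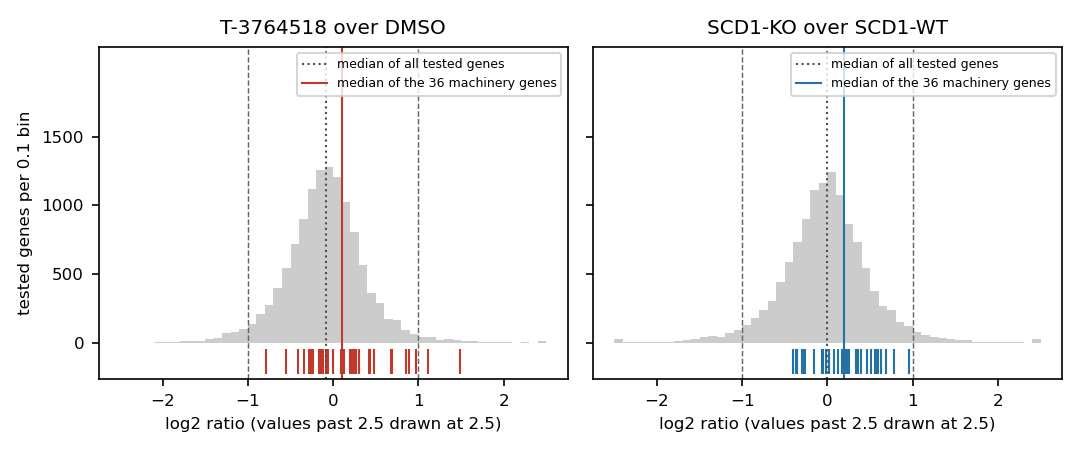
Histograms of the log2 ratios of all 12321 tested genes (genes per bin on the vertical axis), with the inhibitor on the left and in SCD1-KO cells on the right, and a coloured tick under the histogram for each of the 36 machinery genes. Dashed lines mark 2-fold; the members' median (coloured line) stood at 0.11 and 0.20, to the right of the median of all genes (dotted line) at -0.087 and -0.011.

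The steps differed in their medians, but with T-3764518 those of PI3K, lipid transfer and fusion lay near the -0.087 of all genes. With T-3764518 the median log2 ratio was 0.44 in the ULK step, -0.087 in the PI3K step, -0.074 in the lipid transfer step, 0.21 in the conjugation step and -0.061 in the fusion step. The 3 negative medians turned positive when the arrays were scaled to 1 median (0.19, 0.21 and 0.22), as did that of all genes (0.19). Those of lipid transfer and fusion also did after quantile normalization (0.048 and 0.020) and the lowess correction (0.044 and 0.037). Over all genes the median was then -0.026 and -0.013. Without a filter or at percentile 75, with the mean or the brightest probe set, or without probe sets marked _s_at or _x_at, at least 1 of the 3 also changed sign. Without probe sets marked _s_at or _x_at, 3 genes of the ULK step were left, and its median with T-3764518 was -0.00090. For SCD1-KO cells the medians were 0.23, 0.072, 0.39, 0.20 and 0.17 in the same order of steps, against -0.011 over all genes. Each stayed above 0 after quantile normalization and the lowess correction. Scaling to 1 median adds 0.14 to every SCD1-KO ratio, so it could not bring them under 0. Every step held ratios of both signs in both states, and the members of the lipid transfer step spread widest with T-3764518, at -0.42 to 1.49.

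**Figure D2:**
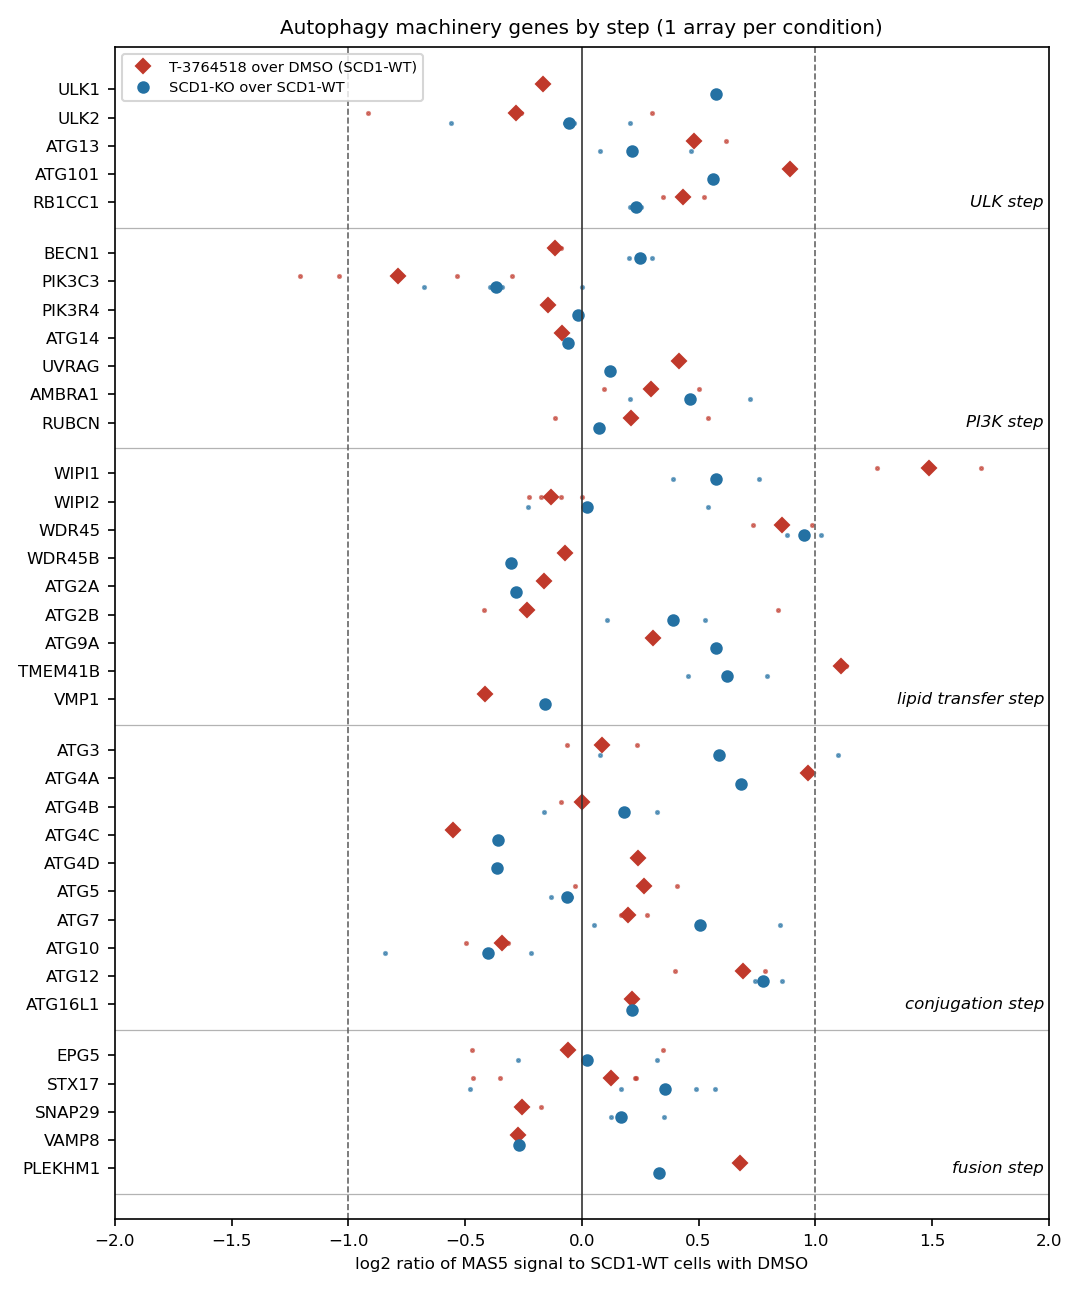
Log2 ratio of each of the 36 genes to SCD1-WT cells with DMSO, grouped by step, with the inhibitor (red diamonds) and in SCD1-KO cells (blue circles). Small dots are single probe sets and dashed lines mark 2-fold; WIPI1 and TMEM41B are the only gene values beyond them.

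The windows before the start sites of 4 genes are shown because these genes had the highest ratios: WIPI1 and TMEM41B with the inhibitor, WDR45 and ATG12 in SCD1-KO cells. They were chosen after their values were seen. Each window holds the 250 bases before the RefSeq start of the gene (build GRCh38.p14), all on the minus strand and written 5′ to 3′ along the gene, and capitals mark matches on either strand to the motifs named after them.
WIPI1, chr17:68457497-68457746: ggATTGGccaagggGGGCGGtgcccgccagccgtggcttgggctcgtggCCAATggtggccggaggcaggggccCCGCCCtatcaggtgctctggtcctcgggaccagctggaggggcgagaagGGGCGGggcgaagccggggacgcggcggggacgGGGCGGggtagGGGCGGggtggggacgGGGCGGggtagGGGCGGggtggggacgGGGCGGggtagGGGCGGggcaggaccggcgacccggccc
TMEM41B, chr11:9314594-9314843: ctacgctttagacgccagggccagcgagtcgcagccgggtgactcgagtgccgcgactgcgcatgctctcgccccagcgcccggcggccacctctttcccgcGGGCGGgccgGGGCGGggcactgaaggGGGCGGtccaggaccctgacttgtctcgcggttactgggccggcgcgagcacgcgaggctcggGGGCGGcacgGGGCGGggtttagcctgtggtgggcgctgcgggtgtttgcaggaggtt
WDR45, chrX:49101179-49101428: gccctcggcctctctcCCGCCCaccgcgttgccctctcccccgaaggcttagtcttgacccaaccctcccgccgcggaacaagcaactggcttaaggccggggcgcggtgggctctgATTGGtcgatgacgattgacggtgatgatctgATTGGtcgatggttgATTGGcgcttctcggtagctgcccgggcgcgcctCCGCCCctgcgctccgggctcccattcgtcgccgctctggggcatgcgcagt
ATG12, chr5:115841566-115841815: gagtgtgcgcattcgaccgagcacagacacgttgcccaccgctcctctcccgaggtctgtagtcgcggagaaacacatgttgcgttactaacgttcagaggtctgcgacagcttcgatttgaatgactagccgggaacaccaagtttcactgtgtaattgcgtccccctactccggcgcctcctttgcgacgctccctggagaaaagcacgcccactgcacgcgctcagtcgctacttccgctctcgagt
The GC box GGGCGG occurred 9 times in the window of WIPI1, 5 times in that of TMEM41B and 2 times in that of WDR45. The CCAAT box CCAAT occurred 2 times for WIPI1 and 3 times for WDR45, and no match overlapped another. The window of ATG12 held none of the 6 motifs searched.

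RefSeq windows were at hand for 30 of the 36 genes, 35 windows in all. STX17, ATG4D, WDR45B, RB1CC1, UVRAG and EPG5 are named only. A GC box was found in 57.1% of the member windows, against 42.6% of all 35116 windows of this length, and a CCAAT box in 40.0% against 32.0%. The E-box CACGTG, the core of sites bound by MITF/TFE factors, occurred in 3 member windows (ATG14, ATG3 and SNAP29), or 8.57%, against 6.34% of all windows. The AP-1 site TGAGTCA occurred in 1, at a second and inner start of WDR45, or 2.86% against 4.20%. Neither the ATF4-CHOP element TGATGNAAN nor the cyclic AMP response element TGACGTCA occurred in any of the 35, against 3.13% and 1.65% of all windows. A match describes letters in a window and does not show that a factor binds there.

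In the ULK complex, ATG101, ATG13 and the scaffold RB1CC1 (FIP200) stood above their DMSO signal by more than the spread between probe sets with T-3764518, and the kinases ULK1 and ULK2 did not. ATG101, which stabilises ATG13, had a signal of 2481 with the inhibitor and 1975 in SCD1-KO cells, against 1337 with DMSO. The DMSO array was the lowest, with log2 ratios of 0.89 and 0.56 (SD between probe sets 0.23 in each state), although 1 probe set reads this gene. RB1CC1 had log2 ratios of 0.44 and 0.23, and ATG13, the adaptor that ties the kinase to the complex, 0.48 and 0.21, with all 3 probe sets of ATG13 above 0 in both states. ULK1, the lead kinase of the pathway, had signals of 134 with the inhibitor and 224 in SCD1-KO cells, against 151 with DMSO. Its SCD1-KO value was the highest of the 3 arrays, at a log2 ratio of 0.58 against an SD of 0.46 at this brightness, and its ratio with T-3764518 was -0.17 and turned positive under each of the other normalizations. ULK2, the second kinase, had 169 with the inhibitor, 191 in SCD1-KO cells and 207 with DMSO, ratios of -0.28 and -0.053. From the brightest to the dimmest, its 4 probe sets gave -0.92, -0.26, -0.30 and 0.30 with the inhibitor. In SCD1-KO cells they gave -0.56, -0.072, -0.035 and 0.21. Only the dimmest was above DMSO, but both values of ULK2 lay within the SD of 0.45 and 0.46, so no direction can be given for it.

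In the PI3K complexes the lipid kinase itself had the lowest ratio of all 36 genes with T-3764518, and those of the other 6 genes of the step lay between -0.14 and 0.42. PIK3C3 (VPS34), which makes PI3P, was read by 4 kept probe sets. The brightest gave 2071 with the inhibitor, 1941 in SCD1-KO cells and 2547 with DMSO. The second gave 263, 301 and 381 on the same arrays, the third 136, 281 and 280, and the dimmest 48.9, 70.6 and 113. All 4 were below DMSO with T-3764518, at log2 ratios of -0.30, -0.54, -1.04 and -1.21 from the brightest to the dimmest, and the last of these signals is under the filter level of 56.6. The gene's value was -0.79 (SD 0.45), at least 1.70-fold lower, but the brightest probe set alone gives -0.30, as does the stricter filter. In SCD1-KO cells the value was -0.37, inside that spread.

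BECN1 (Beclin 1), the scaffold of both PI3K complexes, had log2 ratios of -0.11 and 0.25, the second just past its probe set SD of 0.23. The T-3764518 ratio of BECN1 turned positive with the arrays scaled to 1 median, as did those of PIK3R4 (VPS15, -0.14) and ATG14 (-0.087), the subunit of the autophagy-specific complex. In SCD1-KO cells PIK3R4 stood at -0.018 and ATG14 at -0.059. UVRAG, the subunit that takes the place of ATG14 in the endosomal complex, had a signal of 395 with the inhibitor and 322 in SCD1-KO cells, against 296 with DMSO. Its T-3764518 ratio of 0.42 was the highest of the step but within its SD of 0.45. AMBRA1, which links Beclin 1 to its regulators, had 651 with the inhibitor and 730 in SCD1-KO cells, against 530 with DMSO. Both ratios of AMBRA1 were above 0, at 0.30 (within its SD of 0.36) and 0.46 (SD 0.37), with both probe sets above 0. The brighter probe set gave 0.094 and 0.21. RUBCN (Rubicon), an inhibitor of the UVRAG complex, had 0.21 and 0.072, but its probe sets split at 0.54 and -0.12 with T-3764518.

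The genes farthest above DMSO belonged to the lipid transfer step. WIPI1, a PI3P-binding PROPPIN used as a marker of forming autophagosomes, had signals of 3058 and 3064 on its 2 probe sets with the inhibitor, 1668 and 1585 in SCD1-KO cells, and 1274 and 935 with DMSO. Both probe sets put the arrays in the same order, with T-3764518 highest and DMSO lowest. The log2 ratio was 1.49 with the inhibitor (1.26 and 1.71 on the 2 probe sets, SD 0.23) and 0.57 in SCD1-KO cells (0.39 and 0.76), that is 2.80-fold and 1.49-fold. Counted from the highest ratio, WIPI1 held rank 103 of the 12321 genes with the inhibitor and rank 1256 in SCD1-KO cells, and over 11 alternative ways to process the arrays its T-3764518 ratio lay between 1.26 and 1.77.

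TMEM41B, a scramblase of the endoplasmic reticulum, had signals of 6321 and 7807 with the inhibitor, 4999 and 5014 in SCD1-KO cells, and 2887 and 3659 with DMSO. The order of the arrays was again the same on both probe sets. The log2 ratios were 1.11 (1.13 and 1.09 on the 2 probe sets) and 0.62 (0.79 and 0.45), or 2.16-fold and 1.54-fold. Over the 11 alternatives the T-3764518 ratio lay between 1.07 and 1.39. VMP1, the other scramblase of the endoplasmic reticulum, had 236 with the inhibitor, 282 in SCD1-KO cells and 315 with DMSO on the 1 probe set that names it alone, log2 ratios of -0.42 and -0.16, both within the SD of 0.45 and 0.46. A further 3 probe sets name VMP1 together with the microRNA gene MIR21, which overlaps it, and gave 0.20, -0.51 and -0.41 with the inhibitor and 0.12, -0.15 and -0.0072 in SCD1-KO cells. The difference in log2 ratio of TMEM41B minus VMP1 was 1.53 with the inhibitor and 0.78 in SCD1-KO cells, against combined SDs of 0.51 and 0.52. The third scramblase, ATG9A, which travels in vesicles, had 0.30 and 0.57.

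WDR45 (WIPI4), a PROPPIN that binds ATG2 and is mutated in a neurodegeneration with brain iron accumulation, had the highest SCD1-KO ratio of the 36 genes. Its 2 probe sets read 2126 and 1001 with the inhibitor, 2603 and 932 in SCD1-KO cells, and 1280 and 506 with DMSO. Both states were above DMSO on both probe sets, and the order of T-3764518 and SCD1-KO cells differed between them. The log2 ratios were 0.86 and 0.95 (SD 0.32 and 0.30), under 2-fold in each, although scaling to 1 median puts them at 1.14 and 1.09. The ratios of WDR45B and WIPI2 lay lower. WDR45B (WIPI3) had 5798 with the inhibitor, 4944 in SCD1-KO cells and 6102 with DMSO, log2 ratios of -0.074 and -0.30 (SD 0.23), the lowest of the step in SCD1-KO cells, and WIPI2, which recruits ATG16L1, had -0.13 and 0.021 over 4 probe sets. Scaling to 1 median makes the T-3764518 ratios of WDR45B and WIPI2 positive (WDR45B at 0.21). Within the family the difference WIPI1 minus WIPI2 was 1.62 with the inhibitor and 0.55 in SCD1-KO cells (combined SD 0.40 and 0.38), and WDR45 minus WDR45B was 0.93 and 1.26 (0.40 and 0.38), and no such difference moves with a scaling of whole arrays.

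The lipid carriers ATG2A and ATG2B lay near DMSO with T-3764518, at -0.16 and -0.23, and both of these signs flipped with the arrays scaled to 1 median. ATG2A had -0.28 in SCD1-KO cells and ATG2B 0.39. The probe sets of ATG2B split with the inhibitor, at 0.84, -0.23 and -0.42, and were 0.11 to 0.53 in SCD1-KO cells.

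**Figure D3:**
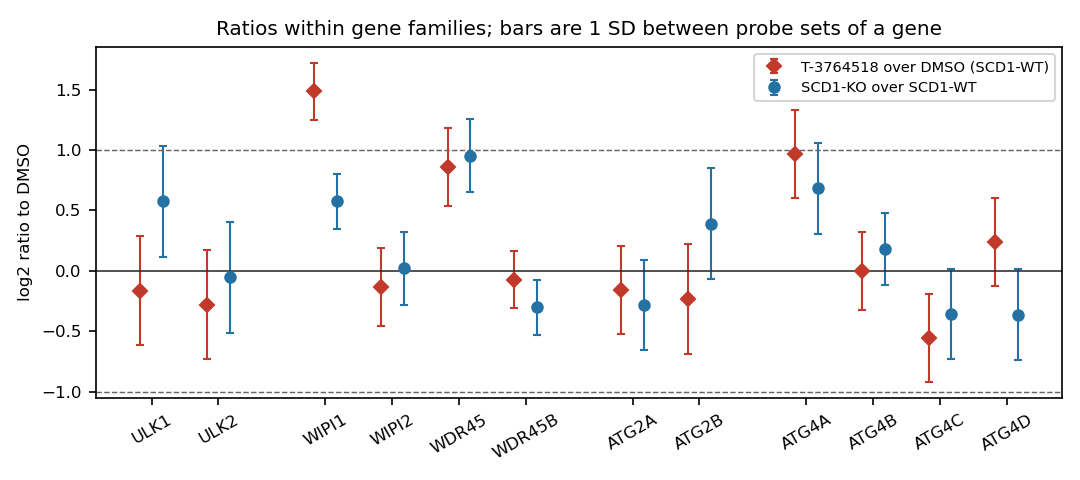
Log2 ratio to DMSO (vertical axis) of the members of 4 gene families, with the inhibitor (red diamonds) and in SCD1-KO cells (blue circles); bars are 1 SD of probe sets reading the same gene. In both states WIPI1 stands above WIPI2, WDR45 above WDR45B, and ATG4A above the other ATG4 genes. WIPI1, WDR45 and ATG4A are at 1.49, 0.86 and 0.97 with the inhibitor and 0.57, 0.95 and 0.68 in SCD1-KO cells.

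Among the conjugation genes, ATG4A and ATG12 were highest, and 0 of the 10 passed 2-fold in either state. ATG12, the ubiquitin-like protein joined to ATG5, was read by 3 probe sets. They gave 9248, 2709 and 958 with the inhibitor, 10374, 2696 and 1214 in SCD1-KO cells, and 5730, 1572 and 727 with DMSO. DMSO was the lowest array on every probe set, and the log2 ratios were 0.69 (0.40 to 0.79) with the inhibitor and 0.78 (0.74 to 0.86) in SCD1-KO cells, 2.94 and 3.37 times the SD. ATG5, its partner, had 0.26 and -0.062, and ATG16L1, which completes the complex and places it on the membrane, had 0.22 and 0.21, within its SD. ATG7, the E1-like enzyme of both reactions, had 0.20 and 0.51, with the 3 SCD1-KO probe set ratios spread from 0.053 to 0.85. ATG10, the E2-like enzyme for ATG12, had 210 with the inhibitor, 196 in SCD1-KO cells and 275 with DMSO. Both states were below DMSO on each of its 3 probe sets, at -0.34 and -0.40, within the SD of 0.45 and 0.46 at this brightness. ATG3, the E2-like enzyme for ATG8 proteins, had 0.086 and 0.59, and its SCD1-KO value joins a dim probe set (102 with the inhibitor, 228 in SCD1-KO cells and 107 with DMSO) with a ratio of 1.10 and a bright one (4271, 3828 and 3623) with 0.079.

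The ATG4 proteases, which cut ATG8 proteins before attachment and release them later, had ratios of both signs. ATG4A had a signal of 633 with the inhibitor and 518 in SCD1-KO cells, against 323 with DMSO, and log2 ratios of 0.97 and 0.68 on its 1 probe set (SD 0.36 and 0.37). The T-3764518 ratio of 1.96-fold lies just inside 2-fold and passes it with each of the other normalizations. ATG4C had 378 with the inhibitor and 432 in SCD1-KO cells, against 554 with DMSO, log2 ratios of -0.55 and -0.36 on 1 probe set, the lowest of the step with T-3764518. ATG4B, the most active of the family on LC3, had 0.0010 and 0.18 over 3 probe sets, its T-3764518 sign changing with quantile normalization, and ATG4D had 0.24 and -0.36. ATG4A minus ATG4C was 1.52 with the inhibitor and 1.04 in SCD1-KO cells, against combined SDs of 0.52 and 0.53. ATG4A minus ATG4B was 0.97 and 0.50 (0.49 and 0.48).

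**Figure D4:**
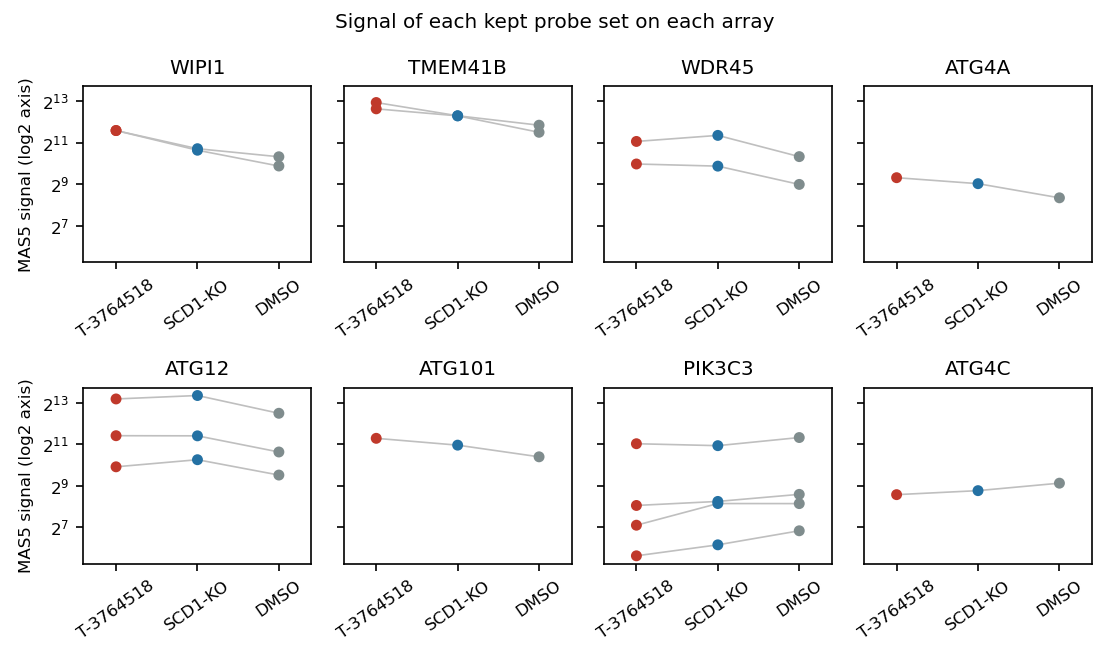
MAS5 signal (log2 axis) of each kept probe set of 8 genes on the arrays of T-3764518, SCD1-KO and DMSO, with lines joining the values of a probe set. WIPI1, TMEM41B, WDR45, ATG4A, ATG12 and ATG101 are lowest with DMSO on every probe set, and ATG4C is highest there, while the 4 probe sets of PIK3C3 are below DMSO with T-3764518 by unequal amounts.

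In the fusion step, PLEKHM1 was highest with T-3764518 and the SNAREs lay near DMSO. PLEKHM1, which joins RAB7 and the HOPS tether to ATG8 proteins, had 902 with the inhibitor and 707 in SCD1-KO cells, against 563 with DMSO, log2 ratios of 0.68 and 0.33 on 1 probe set (SD 0.32 and 0.30). A probe set that also names other genes, among them a PLEKHM1 pseudogene, gave -0.13 and 0.092, and counting it in would lower the T-3764518 value to 0.27. STX17, the SNARE of the closed autophagosome, had 342 with the inhibitor, 412 in SCD1-KO cells and 354 with DMSO, log2 ratios of 0.13 and 0.36. Its 5 probe sets held both signs in both states, at -0.47 to 0.23 and -0.48 to 0.57. VAMP8, the SNARE of the lysosome, had 2819 with the inhibitor, 2829 in SCD1-KO cells and 3407 with DMSO. It was the lowest of the step in both states, at -0.27 and -0.27 (SD 0.23), and its T-3764518 ratio reached 0.0055 with the arrays scaled to 1 median. SNAP29, the SNARE between them, had -0.26 (positive under that scaling) and 0.17, and EPG5, a tether of late endosomes, -0.061 (positive under each of the other normalizations) and 0.023, with its 2 probe sets on opposite sides of 0 in both states.

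Set directly against each other, the 2 perturbed states differed by 2-fold in 0 of the 36 genes, where 3.10% of all genes were called higher and 4.52% lower with the inhibitor than in SCD1-KO cells. That ratio had a median (log2) of -0.089 for the members and -0.057 for all genes, and 15 members were above 0, against 44.8% of all genes. Above the median of all genes were 17 of the 36, and 16 after quantile normalization. WIPI1 was farthest above, at 0.91 (0.87 and 0.95 on its probe sets), and passed 2-fold with the arrays scaled to 1 median, at 1.05. ATG4D followed at 0.60, and ULK1 was farthest below, at -0.74. These 3 were past 1.5-fold, where 9.08% of all genes were higher and 14.2% lower. ULK1 and ATG4D rest on 1 probe set each, at signals of 134 and 428 with the inhibitor and 224 and 281 in SCD1-KO cells.

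Of 21 neighbouring genes, listed for the ATG8 proteins, PI3K accessory proteins and tethers of fusion, 18 were tested. MAP1LC3B, which encodes LC3B, was the 1 called higher with T-3764518, and 0 were lower, where 2.18% and 3.30% of all genes were. In SCD1-KO cells 2 were higher and 2 lower, against 3.12% and 3.93% of all genes. The probe sets of MAP1LC3B read 9178 and 10794 with the inhibitor, 6722 and 9176 in SCD1-KO cells, and 4062 and 3778 with DMSO, with the same order of arrays on both and log2 ratios of 1.35 and 1.00, the second at the 2-fold threshold. GABARAPL1, another ATG8 protein, had 1090 and 1486 with the inhibitor, 524 and 906 in SCD1-KO cells, and 536 and 884 with DMSO, so its T-3764518 array alone stood apart, at a log2 ratio of 0.89 against 0.0018 in SCD1-KO cells. GABARAP and GABARAPL2 were at -0.091 and -0.23 with the inhibitor and -0.020 and -0.14 in SCD1-KO cells, and all 4 turn positive with the arrays scaled to 1 median. MAP1LC3A was lower in SCD1-KO cells, but 1 of its 2 probe sets lay under the filter level there (32.9, against 109 with T-3764518 and 190 with DMSO). With that signal raised to the level, the median of the 2 probe sets was 2.36-fold lower. The other probe set alone was 1.66-fold lower (71.3, against 129 with T-3764518 and 118 with DMSO). The other calls in SCD1-KO cells were the HOPS subunits VPS11, lower at 239 against 499 with DMSO (425 with T-3764518), and VPS18, higher by 2.33-fold on signals as low as 36.8 with DMSO and by 1.88-fold with that signal raised to the filter level. The accessory proteins NRBF2, SH3GLB1 and ZFYVE1 lay at 0.33 to 0.38 with the inhibitor and at 0.17 to 0.47 in SCD1-KO cells.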

How the data were processed

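Total RNA of each culture was extracted by the authors and read by a service laboratory on the Human Genome U133 Plus 2.0 Array. The deposited value is 1 MAS5 signal intensity per probe set, on a linear scale and scaled to a common trimmed mean. MAS5 comes from the submitters' processing notes, with no version given in the sources used here. On the SCD1-KO array the signals have more decimals than on the others. The labels give no dose, and no vehicle or time for SCD1-KO cells. The inhibitor's dose (100 nM), the vehicle of SCD1-KO cells (DMSO) and the 24 h were read in the paper.

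All later steps were computed here with pandas 2.3.3, numpy 2.4.6, statsmodels 0.14.6 and matplotlib 3.10.9 under Python 3.11.15. Of 54675 probe sets, 41097 carry 1 gene symbol in the platform annotation, 1801 carry several and 11777 are not listed, and symbols were updated by gene ID. The 62 control probe sets were left out. Probe sets stayed in where their log2 signal, averaged over the arrays, reached percentile 50 of all (a signal of 56.6), which left 23192 of 12321 genes, 6169 of them read by 1 probe set. Where a signal lay under that level, a fold is "at least", with the signal raised to it. The calls were also run on simulated arrays, with changes set well past 2-fold and noise smaller than the spread between probe sets. That run checks the computation only and says nothing of genes near 2-fold. The number of arrays limits the precision.

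The members and lists were chosen with earlier results of these data known. Signals on each array are given for members past 2-fold in any ratio and, in each step, for the highest and lowest ratio in each state; further genes were named after their values were seen. The members' ratios, counts and medians were computed again with quantile normalization, scaling to 1 median, a lowess correction, no filter, a stricter one at percentile 75, 16.5 added to every signal, a floor at the filter level, the brightest probe set, the mean of the probe sets, no probe sets marked _s_at or _x_at, and, for the counts, thresholds of 1.5-fold, 3-fold or 2-fold in every kept probe set. Neighbouring genes and markers were computed again with the floor only, and SCD and the differences within families with none of these settings. Probe sets that also name another gene, and all alternatives for T-3764518 over SCD1-KO, were added after the data were seen.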

Additional observations from a re-analysis of the deposited data

How the results depend on the processing

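No paired analysis was possible because each condition has 1 array. WIPI1 and TMEM41B stayed past 2-fold with T-3764518 in every alternative other than the 3-fold threshold, which leaves 0 members higher. Scaling to 1 median calls 5 members higher with T-3764518 (adding ATG101, WDR45 and ATG4A), 1 in SCD1-KO cells (WDR45) and 1 in T-3764518 over SCD1-KO (WIPI1). In SCD1-KO cells 1 was higher without a filter (PLEKHM1), 1 from the brightest probe set (WDR45) and 2 without probe sets marked _s_at or _x_at (WDR45 and ATG3). In T-3764518 over SCD1-KO, 1 was lower without a filter (ATG16L1) and 1 without those probe sets (ATG3). At 1.5-fold, 7 were higher and 1 lower with T-3764518, 5 higher in SCD1-KO cells, and 2 higher and 1 lower in T-3764518 over SCD1-KO. Of the 84 alternative counts, 70 were equal to the reported one or within 1.5 times it. Most of the 70 were a count of 0 that stayed 0.

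The median of the members with T-3764518 (0.11) was 0.17 after quantile normalization, 0.39 with 1 median, 0.19 with lowess, 0.044 without a filter, 0.25 at percentile 75, where 28 members are left, and -0.031 without probe sets marked _s_at or _x_at, where 28 are left. That in SCD1-KO cells (0.20) was 0.34 with 1 median, and that of T-3764518 over SCD1-KO (-0.089) was 0.050 with 1 median, 0.011 at percentile 75 and -0.016 from the brightest probe set. Of the ULK step with T-3764518 the median was 0.71 with 1 median and -0.00090 without _s_at and _x_at, and in SCD1-KO cells 0.47 from the brightest probe set and 0.56 without _s_at and _x_at. Of the PI3K step it was 0.19 with T-3764518 and 0.21 for SCD1-KO cells, both with 1 median. Of lipid transfer with T-3764518 it was 0.048 after quantile normalization, 0.21 with 1 median, 0.044 with lowess, 0.30 without a filter, 0.30 at percentile 75, 0.063 from the mean and 0.072 without _s_at and _x_at, and in SCD1-KO cells 0.53 with 1 median and 0.57 at percentile 75. Of conjugation with T-3764518 it was 0.48 with 1 median and 0.066 without _s_at and _x_at, and in SCD1-KO cells 0.34 with 1 median, 0.079 at percentile 75 and 0.37 without _s_at and _x_at. Of fusion with T-3764518 it was 0.22 with 1 median, -0.26 without a filter, 0.23 at percentile 75 and 0.13 from the brightest probe set, and in SCD1-KO cells 0.32 without a filter and 0.32 at percentile 75. The other 107 of 143 medians moved by less than a set yardstick. That yardstick is the root mean square of the listed genes' probe set SDs, divided by the square root of the number of listed genes. It treats genes as independent and is not a spread of the medians. The scaling acts on every ratio alike and the filters leave fewer genes; other causes were not tested. Of 1140 values of single genes, 33 moved by more than the spread between probe sets.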
